A study of Homo sapiens with 4 samples.

Results

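The genes described are 9 transcription factors of the myeloid blood lineage, CEBPA, CEBPB, CEBPD, CEBPE, SPI1, RUNX1, MYB, GFI1 and KLF4, taken by symbol from the deposited expression table. All 9 were found, each on 1 line of the table, among 59533 genes whose symbol occurs once. RNA sequencing was done on 4 libraries from 2 human cancer cell lines, 1 library per group. The groups were HCC1937 cells given decitabine (DAC) at 0.3 µM for 5 days, untreated HCC1937 cells, THP-1 cells given DAC at 5 µM for 2 days, and untreated THP-1 cells. HCC1937 comes from a breast carcinoma, and THP-1 from a leukaemia of the monocyte lineage. Per the labels, both lines lack p53 and all 4 cultures were infected with p53-R282W, a mutant of the tumour suppressor p53, so the controls carry it too. DAC is a cytidine analogue that blocks DNA methyltransferases, and the series compares expression with and without it. The labels do not say how the mutant was expressed or whether the cells were cloned.

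Blood cells of the granulocyte and monocyte branches are specified by a small set of DNA-binding proteins. PU.1 (the product of SPI1) and RUNX1 act early, C/EBP alpha (CEBPA) directs progenitors towards granulocytes and monocytes, and C/EBP epsilon (CEBPE) acts late in granulocytes. MYB keeps progenitors proliferating, GFI1 is a repressor that favours granulocytes, and KLF4 favours monocytes. C/EBP beta (CEBPB), C/EBP delta (CEBPD) and KLF4 are also used outside blood, among other places in epithelia, where CEBPB and CEBPD respond to inflammatory signals and KLF4 acts in differentiation. DNA methylation at CpG dinucleotides is one of the ways in which lineage genes are kept silent in other tissues.

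Because each group is 1 library, the spread between cultures is unknown and nothing is tested within a line. Genes were kept where either library of the line reached 1 FPKM, and a kept gene was called when its log2(FPKM + 1) differed by 2-fold or more. FPKM is fragments counted per kilobase of exon, scaled to the depth of the library. Intervals are 95% and cover counting error only, exact Poisson for a level and Clopper-Pearson for a ratio. Counted reads, inferred from the spacing of the values, were 18.7 M in both HCC1937 libraries and 19.7 M and 19.5 M in the DAC and untreated THP-1 libraries. Both HCC1937 libraries held 12 of 12 epithelial and basal breast markers at 1 FPKM or more (summed level 3144 FPKM with DAC, 3304 FPKM untreated), with KRT14 and KRT19 called higher and none lower. Median-of-ratios scaling gave 2 higher and 1 lower of these markers, and upper-quartile scaling 2 higher and 2 lower. Both THP-1 libraries held 12 of 12 leukocyte and monocytic markers (1694 and 1727 FPKM), with none called. No library without p53-R282W was included.

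The myeloid set split the lines by level. In untreated THP-1, SPI1 stood at 475 FPKM (105th of 18221 protein-coding genes with values) and CEBPA at 380 FPKM (132nd). The other members followed in the order GFI1 (136.1), CEBPD (116.8), MYB (73.1), CEBPB (43.8), RUNX1 (22.0), KLF4 (9.13) and CEBPE (2.39 FPKM). The order was the same in the DAC library of THP-1, and no 2 neighbours in it had overlapping counting intervals in either library. In untreated HCC1937 the order began with CEBPB (224 FPKM, 166th of 19473), CEBPD (90.6) and KLF4 (41.2 FPKM). RUNX1 (3.33), CEBPA (2.43) and GFI1 (1.78 FPKM) were low, and SPI1 (0.08), MYB (0.07) and CEBPE (listed at 0) rested on at most 7 reads each. The intervals of CEBPA and GFI1 overlapped there, as did those of SPI1, MYB and CEBPE. In the DAC library of HCC1937, KLF4 (44.5 FPKM) stood above CEBPD (32.3) and CEBPA (9.09) above RUNX1 (4.29 FPKM), while MYB and CEBPE still had overlapping intervals.

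Levels can be set between the lines only roughly, because the values of the 2 lines imply different exon lengths per gene. Lengths over all GENCODE 29 exons matched HCC1937 better and lengths over transcripts with a RefSeq match fitted THP-1 better. The margin was smaller in THP-1. Among low-read genes of 300 to 900 bases, all-exon lengths gave near-whole counts for 84.1% with DAC and 84.2% untreated in HCC1937. RefSeq-matched lengths gave 39.0% and 38.6% there. In THP-1, RefSeq-matched lengths gave 63.5% with DAC and 59.7% untreated, against 53.2% and 47.3% for all-exon lengths. The THP-1 reads and intervals rest on the RefSeq-matched lengths. Both lengths are equal for CEBPA, CEBPB, CEBPD and CEBPE, and differ most for RUNX1 (15574 against 8432 bases, 1.85 times). On the longer length RUNX1 would stand at 12.0 and 11.9 FPKM in the DAC and untreated THP-1 libraries. SPI1 would stand at 277 and 323 FPKM there, below CEBPA instead of above it.

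**Figure D1:**
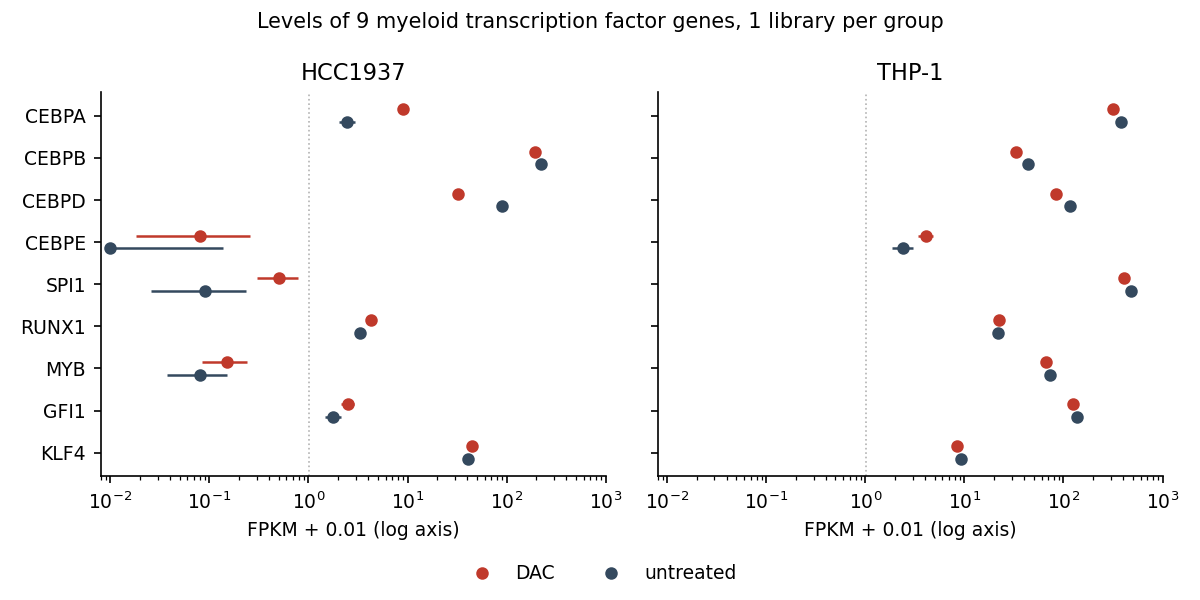
Level of each factor in the DAC (red) and untreated (dark) library of HCC1937 (left) and THP-1 (right), as FPKM + 0.01 on a log axis, with 1 library per group and bars for the 95% Poisson counting interval. SPI1, MYB and CEBPE lie left of the dotted line at 1 FPKM in both HCC1937 libraries, and all 9 factors lie right of it in both THP-1 libraries.

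The promoters were examined for CpG dinucleotides, the substrate of the enzymes that DAC blocks. Methylation itself was not measured in these files. RefSeq promoter windows (300 bases, from 250 before the start to 50 after it, GRCh38.p14) were found for 7 of the 9 genes (all but SPI1 and CEBPD), 10 windows in all. The window of CEBPA held 50 CpG, more than 98.7% of 35116 windows, and that of MYB held 35. CEBPB had 2 windows with 31 and 43 CpG, RUNX1 1 with 40, KLF4 1 with 33 and GFI1 3 with 20 to 27. The RUNX1 window (chr21:34888650-34888949, minus strand) lies inside the gene. The annotated 5' end of RUNX1 is at 36004667, where no window was found. The window of CEBPE held 2 CpG, against a median of 14 over all windows. The 250 bases before the start are shown for CEBPA (chr19:33302535-33302784, minus strand), the member that rose in HCC1937, for MYB (chr6:135181058-135181307, plus strand), which is CpG-rich and stayed near 0 there, and for CEBPE (chr14:23119256-23119505, minus strand), the CpG-poor member. Each CpG is in capitals.
CEBPA: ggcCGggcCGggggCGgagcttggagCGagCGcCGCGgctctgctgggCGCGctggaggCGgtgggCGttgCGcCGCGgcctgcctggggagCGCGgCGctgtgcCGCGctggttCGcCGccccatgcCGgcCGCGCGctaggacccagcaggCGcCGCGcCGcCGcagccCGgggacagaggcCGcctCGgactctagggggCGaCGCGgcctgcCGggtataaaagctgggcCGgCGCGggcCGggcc
MYB: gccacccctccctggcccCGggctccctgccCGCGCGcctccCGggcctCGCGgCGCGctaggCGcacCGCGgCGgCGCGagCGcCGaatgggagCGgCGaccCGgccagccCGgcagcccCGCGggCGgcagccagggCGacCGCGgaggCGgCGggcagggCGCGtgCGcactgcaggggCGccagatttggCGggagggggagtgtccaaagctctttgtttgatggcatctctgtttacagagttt
CEBPE: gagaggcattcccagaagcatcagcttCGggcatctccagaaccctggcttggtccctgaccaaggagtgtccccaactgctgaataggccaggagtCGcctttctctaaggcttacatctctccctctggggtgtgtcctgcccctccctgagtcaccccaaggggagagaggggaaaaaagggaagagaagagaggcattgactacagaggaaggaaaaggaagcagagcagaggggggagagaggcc

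Of these stretches CEBPA held 41 CpG, MYB 34 and CEBPE 2. The same 10 windows were searched on both strands for short core motifs of 4 of the factor families. TTGCNNAA (C/EBP) was found in 1 window of GFI1 and in 10.5% of all windows. GAGGAAG (PU.1) was found in the window of CEBPE and in 13.6% of all windows. TGTGGT (RUNX) was found in 1 window of GFI1 and in 13.1%, and AACNGNC (MYB) in the window of KLF4 and in 32.2% of all windows. The C/EBP and RUNX matches lie in the same window of GFI1, and a match describes letters only.

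In HCC1937, 2 of the 9 factors passed 2-fold, CEBPA upwards and CEBPD downwards. Of 14058 genes kept, 10.3% were called higher and 1.44% lower in the DAC library, which is 1452 and 202 genes. With median-of-ratios scaling these counts were 1158 and 365, and with upper-quartile scaling 1063 and 487. A single call in each direction among 6 kept factors does not set them apart from that background. The other 4 kept factors, CEBPB, KLF4, RUNX1 and GFI1, were not called. SPI1, MYB and CEBPE did not reach 1 FPKM in either library. The median log2 difference of the 9 factors was 0.11, against 0.19 over the genes kept.

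CEBPA (ENSG00000245848.2, hg38 chromosome 19, 33299934 to 33302564, minus strand) stood at 9.09 FPKM in the DAC library and 2.43 FPKM in the untreated library of HCC1937. These are about 447 and 120 reads, a ratio of 3.74 with an interval of 3.04 to 4.61 and a log2 difference of 1.56. Of the kept genes, 96.1% had a lower difference. CEBPA remained far below THP-1 levels in both. GENCODE 29 places exons of 2 opposite-strand genes over 43.4% of its exon bases. Both of those genes were listed at 0 in both HCC1937 libraries. Since strand use in counting is not given in the sources used here, reads of such overlaps cannot be told apart. CEBPA-DT, a divergent transcript that starts just upstream, stood at 0.80 and 0.78 FPKM in the DAC and untreated HCC1937 libraries.

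Some markers of blood cells were also called in HCC1937, where 10.3% of all genes kept were called higher. Of 12 leukocyte and monocytic markers, 5 in the DAC and 4 in the untreated HCC1937 library reached 1 FPKM, with summed levels of 45.4 and 20.8 FPKM. LAPTM5 (13.3 against 1.09 FPKM), CORO1A (14.1 against 4.14) and CSF1R (1.54 against 0.22) were called higher, CSF1R being kept because of the DAC library only, and median-of-ratios or upper-quartile scaling gave 2 calls. The median log2 difference over all 12 was 0.14, against 0.19 over all genes kept. Several of the 12, among them CSF1R, CD33 and LYZ, also stand in the list of target genes described further on. PTPRC, the pan-leukocyte CD45, stood at 0.09 and 0.03 FPKM, CD33 at 0 and 0.01, and LYZ at 0 in both. Of 9 lymphoid markers (summed level 5.27 FPKM with DAC, 0.35 FPKM untreated) 2 were called higher, among them CD79B (2.36 against 0.05 FPKM). Both were kept because of the DAC library only, and the median log2 difference over all 9 was 0.15. Of 9 erythroid and megakaryocytic markers (7.92 and 3.56 FPKM) none was called. Of 6 fibroblast markers (9.28 and 3.28 FPKM) COL1A1 was called (8.86 against 3.24 FPKM), which upper-quartile scaling ended. The part of other cells in the CEBPA result was not tested. In bulk libraries fewer cells of a type and less RNA per cell cannot be told apart.

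CEBPD (ENSG00000221869.4, chromosome 8, 47736909 to 47739086, minus strand) stood at 32.3 FPKM in the DAC library and 90.6 FPKM in the untreated library of HCC1937, about 1317 and 3699 reads. The ratio was 0.357 (0.335 to 0.380) and the log2 difference -1.46, and 0.35% of kept genes had a lower one. Among the 2370 protein-coding genes at 20 FPKM or more untreated, 0.59% had a lower one. No exon of another GENCODE gene covers it.

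CEBPB (ENSG00000172216.5, chromosome 20, 50190734 to 50192689, plus strand) was the most abundant member in HCC1937, at 191 FPKM with DAC and 224 FPKM untreated, a ratio of 0.856 (0.829 to 0.884) and no call. CEBPB-AS1, an antisense RNA whose exons cover 11.8% of the exon bases of CEBPB, stood at 1.75 and 0.16 FPKM in the DAC and untreated libraries, about 87 and 8 reads (log2 1.25). CEBPE (ENSG00000092067.5, chromosome 14, 23117304 to 23119616, minus strand) stood at 0.07 FPKM with DAC, about 2 reads, and was listed at 0 untreated, where 3 reads would be 0.103 FPKM. No fold is given for it.

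The makeup of the C/EBP messages therefore differed between the DAC and untreated HCC1937 libraries. Summed over CEBPA, CEBPB, CEBPD, CEBPE and CEBPG, a widely expressed relative, the level was 251 FPKM with DAC and 334 FPKM untreated. CEBPD made up 12.9% of it with DAC and 27.1% untreated, CEBPB 76.4% and 67.0%, and CEBPA 3.63% and 0.728%. CEBPB exceeded CEBPA 21.1 times in the DAC library and 92.0 times in the untreated one. In THP-1 the sum was 456 FPKM with DAC and 566 FPKM untreated, with CEBPA at 68.7% and 67.1% of it. CEBPD made up 18.3% with DAC and 20.6% untreated there, and CEBPB 7.21% and 7.74%. CEBPG itself was level, at 17.8 and 17.3 FPKM in HCC1937 and 22.2 and 23.1 FPKM in THP-1, DAC first in each line. DDIT3 and CEBPZ, counted with the relatives further on, were left out of the sum, so the shares hold for the genes summed only. In the same order, DDIT3 stood at 26.6 and 40.2 FPKM in HCC1937 and 25.8 and 23.3 FPKM in THP-1. CEBPZ stood at 9.64 and 9.29 FPKM in HCC1937 and 17.5 and 15.5 FPKM in THP-1.

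**Figure D2:**
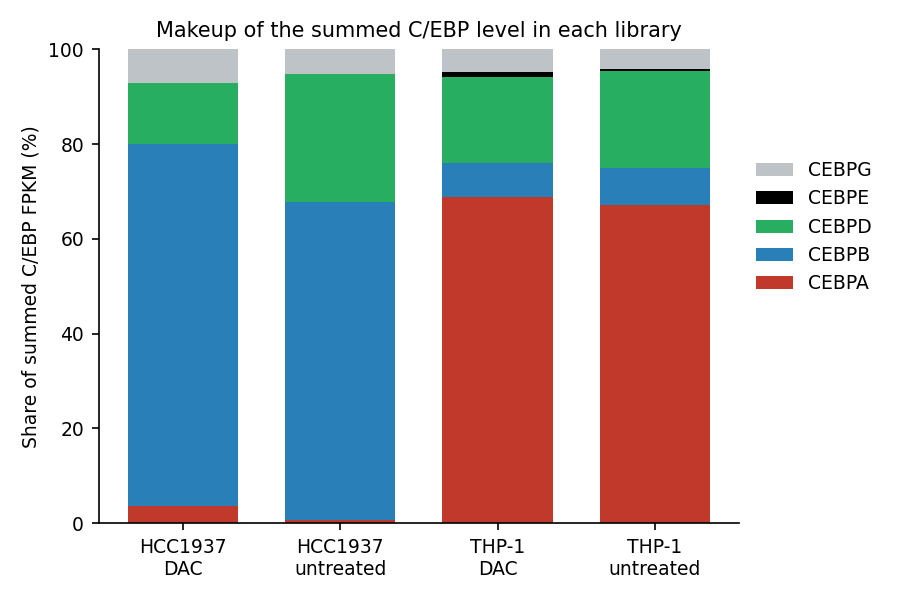
Share (%) of each C/EBP gene in the summed FPKM of CEBPA, CEBPB, CEBPD, CEBPE and CEBPG, 1 bar per library. CEBPB is the main part in both HCC1937 libraries (76.4% with DAC, 67.0% untreated) and CEBPA in both THP-1 libraries (68.7% and 67.1%).

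The remaining factors differed little in HCC1937 or stood on few reads. SPI1 (ENSG00000066336.11, chromosome 11, 47354860 to 47378576, minus strand) stood at 0.50 FPKM with DAC and 0.08 FPKM untreated, about 19 and 3 reads, a ratio of 6.25 with an interval of 1.87 to 33.5. MYB (ENSG00000118513.18, chromosome 6, 135181315 to 135219173, plus strand) stood at 0.14 and 0.07 FPKM, about 14 and 7 reads, and its interval of 0.757 to 5.87 includes equality. Neither passed the filter, so both remained below 1 FPKM with DAC. RUNX1 (ENSG00000159216.18, chromosome 21, 34787801 to 36004667, minus strand) stood at 4.29 FPKM with DAC and 3.33 FPKM untreated, a ratio of 1.29 (1.18 to 1.40). GFI1 (ENSG00000162676.11, chromosome 1, 92474762 to 92486876, minus strand) stood at 2.47 and 1.78 FPKM, a ratio of 1.39 (1.08 to 1.80). KLF4 (ENSG00000136826.14, chromosome 9, 107484852 to 107490482, minus strand) stood at 44.5 and 41.2 FPKM, a ratio of 1.08 (1.03 to 1.14). The log2 differences of RUNX1 (0.29), GFI1 (0.32) and KLF4 (0.11) lay within the interquartile range of the genes kept, -0.11 to 0.52. That of KLF4 turned negative under both scalings.

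In THP-1, where all 9 factors were kept, none reached 2-fold in either direction. Of 12075 genes kept, 1.51% were called in either direction (1.14% higher, 0.364% lower). The 9 differences ran from -0.48 for CEBPD to 0.58 for CEBPE, with a median of -0.13 against 0.07 over the genes kept. They were negative for 7 of 9 factors, while 34.7% of the genes kept had a negative difference. Among protein-coding genes at 20 FPKM or more untreated, where 7 of the 9 factors lie, 49.2% had a negative one. Markers of other cells in THP-1 were low. KRT17 (2.75 FPKM with DAC, 0.52 FPKM untreated) was the 1 epithelial marker of 12 called, COL1A1 (2.08 and 0.50 FPKM) and PDGFRB (1.78 and 0.38 FPKM) were the 2 fibroblast markers of 6, and no lymphoid or erythroid marker was called. The called epithelial and fibroblast markers were kept because of the DAC library only. Median-of-ratios scaling called neither fibroblast marker.

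The 3 abundant C/EBP genes lay at the low end in THP-1. CEBPD stood at 83.4 FPKM with DAC and 116.8 FPKM untreated, a ratio of 0.715 (0.684 to 0.746). CEBPB stood at 32.9 and 43.8 FPKM, a ratio of 0.751 (0.697 to 0.808), and CEBPA at 314 and 380 FPKM, a ratio of 0.826 (0.809 to 0.844). Of the genes kept, 1.52% had a lower difference than CEBPD, 2.29% than CEBPB and 4.94% than CEBPA. Among the 3720 protein-coding genes at 20 FPKM or more untreated these shares were 0.914%, 1.80% and 5.19%. The 3 genes are in the lowest 5% of genes kept, without a call at 2-fold.

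CEBPE had the largest positive difference of the 9 in THP-1, at 4.08 FPKM with DAC and 2.39 FPKM untreated, about 125 and 72 reads, a ratio of 1.71 (1.28 to 2.33). Its log2 difference of 0.58 exceeded that of 96.7% of genes kept. SPI1 stood at 407 FPKM with DAC and 475 FPKM untreated, a ratio of 0.856 (0.835 to 0.878). GFI1 stood at 125 and 136.1 FPKM, a ratio of 0.918 (0.889 to 0.947), and MYB at 66.9 and 73.1 FPKM, a ratio of 0.916 (0.882 to 0.951). RUNX1, at 22.2 and 22.0 FPKM, and KLF4, at 8.48 and 9.13 FPKM, had intervals of the ratio that include equality, 0.966 to 1.06 and 0.817 to 1.06. The log2 difference of RUNX1 was 0.02 and turned negative under both scalings.

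**Figure D3:**
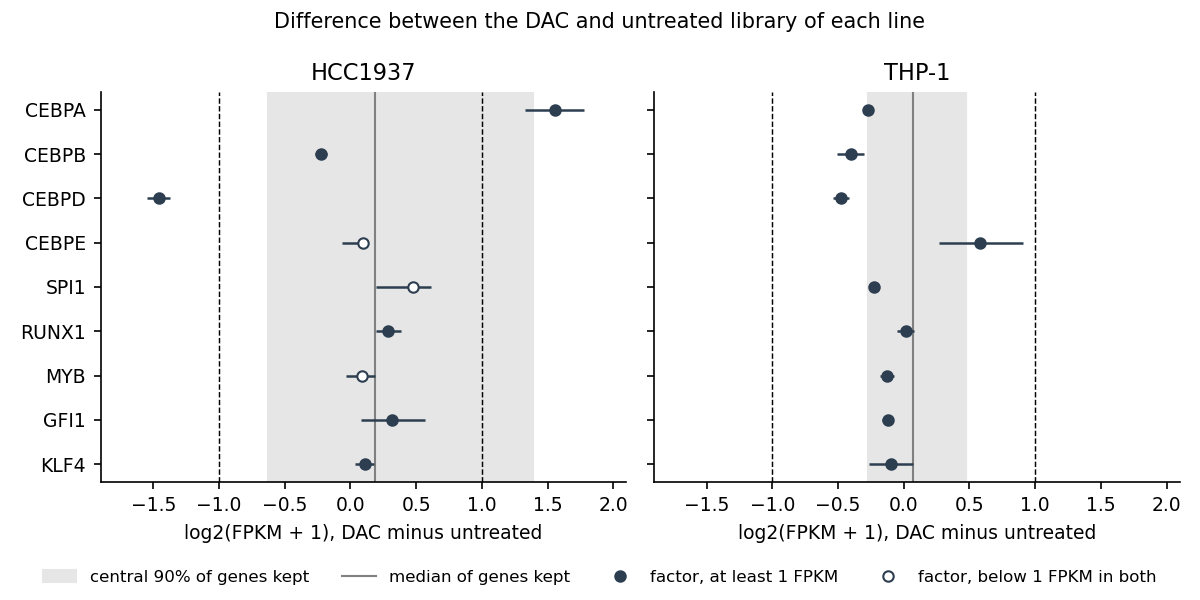
Difference between the DAC and untreated library on log2(FPKM + 1) for each factor in HCC1937 (left) and THP-1 (right), with bars for the 95% counting interval, dashed lines at 2-fold and grey bands for the central 90% of genes kept. CEBPA (1.56) and CEBPD (-1.46) lie beyond 2-fold in HCC1937, and no factor does in THP-1.

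Set side by side, CEBPD was lower with DAC in both lines, by 1.46 in HCC1937 and 0.48 in THP-1 on the log2 scale, and only the first is a call. CEBPB was also negative in both (-0.22 and -0.40), while CEBPA went 1.56 in HCC1937 and -0.27 in THP-1. DAC dose and time differ between the lines, so the sizes are not comparable. Over both lines, limma with line as a block called 0 of 9 factors and 0% of 13984 genes tested. CEBPD had the lowest p among the 9, with a log2 difference of -0.97 (SE 0.28), unadjusted p = 0.0232 and limma adjusted p = 0.695. Of all genes 565 had an unadjusted p below 0.05. In simulated data with 200 genes changed 3-fold alike in both lines this limma setting recovered 0 of 200, so the absence of calls says nothing about the factors.

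Genes listed as relatives of the factors were checked next, 14 in all. They belong to the C/EBP, RUNX, GFI1, ETS, KLF and MYB families or, as CEBPZ and CBFB, are grouped with them. Of 11 kept in each line, 0 were called in HCC1937 (median log2 0.10, against 0.19 over the genes kept) and 0 in THP-1 (median -0.05, against 0.07). Over all genes kept, 11.8% were called in either direction in HCC1937 and 1.51% in THP-1. The largest differences in HCC1937 were those of MYBL2, a cell cycle regulator, at 226 FPKM with DAC and 115.0 FPKM untreated (log2 0.97), and RUNX2, a regulator of bone formation, at 2.09 and 3.77 FPKM. In THP-1 they were those of SPIB, the close relative of PU.1, at 6.46 and 3.33 FPKM, and KLF2, at 17.2 and 25.8 FPKM.

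Of 22 other transcription factors of blood cells, 11 were kept in HCC1937, with 2 called higher and 0 lower, where 10.3% of all genes kept were called higher. The median log2 difference was 0.58 over these 11 and 0.16 over all 22, against 0.19 over all genes kept. HOXA9, a homeobox factor of progenitors, stood at 4.91 FPKM with DAC and 0.33 FPKM untreated, about 278 and 19 reads. LYL1, a helix-loop-helix factor of early blood cells, stood at 1.42 and 0.02 FPKM, about 83 reads against 1. Of these 11, 3 were kept because of the DAC library only, a selection that favours gains, and both called genes are among them. Each scaling also gave 2 higher calls, which does not remove that selection. In THP-1, 15 were kept and 0 called (median -0.08), where 1.51% of all genes kept were called in either direction. The largest differences were those of MYC at 80.1 and 128.5 FPKM (log2 -0.68) and EGR1, an immediate early factor, at 21.5 and 32.2 FPKM. Both are short of 2-fold.

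Among 14 cofactors and regulators, 11 were kept in HCC1937 and 12 in THP-1, and 0 were called in either. Of all genes kept, 11.8% were called in either direction in HCC1937 and 1.51% in THP-1, so 0 among so few does not set the list apart. The list medians were 0.21 in HCC1937 and 0.05 in THP-1, against 0.19 and 0.07 over the genes kept. ID1, an inhibitor of helix-loop-helix factors, stood at 329 FPKM with DAC and 578 FPKM untreated in HCC1937 (log2 -0.81). TRIB3, a pseudokinase, stood at 94.6 and 157.3 FPKM there. TRIB3 also had the largest difference in THP-1, at 45.0 and 64.6 FPKM, and TRIB1, which promotes breakdown of C/EBP alpha, stood at 3.32 and 4.23 FPKM. Median-of-ratios and upper-quartile scaling would call 1 and 2 of this list lower in HCC1937, where they call 365 of 13881 and 487 of 13835 genes kept lower.

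Of 30 myeloid genes known as targets of these factors, 12 were kept in HCC1937 and 5 called, 4 higher and 1 lower, where 10.3% of all genes kept were called higher and 1.44% lower. Higher were TYROBP, a signalling adaptor, at 3.24 FPKM with DAC (about 55 reads) and CAMP, the antimicrobial cathelicidin, at 2.94 FPKM (about 41 reads), both listed at 0 untreated. NCF1, a subunit of the phagocyte oxidase, stood at 1.71 and 0.29 FPKM, and is uncertain because near-identical pseudogenes can share its reads. CSF1R, the receptor of macrophage colony-stimulating factor, was the other higher gene and is named after its value was seen. Lower was LCN2, the iron-carrier binding protein lipocalin that epithelia also make, at 696 FPKM with DAC and 2133 FPKM untreated (log2 -1.61). Of the 12, 6 were kept through the DAC library alone, a selection that favours gains, and all 4 higher calls are among these 6. The share called higher is therefore not read as a trait of the list. Either scaling gave 2 higher, with 1 lower under median-of-ratios and 2 lower under upper-quartile scaling. Of the granule genes, MPO (0.21 against 0 FPKM), ELANE (0.10 against 0), PRTN3 (0 against 0.10) and AZU1 (0.69 against 0 FPKM, about 23 reads against 0) stayed below 1 FPKM in HCC1937, and were likewise singled out after their values were seen. The median log2 difference was 0.55 over the 12 and 0.14 over all 30, against 0.19 over all genes kept. In THP-1, 26 of the 30 were kept and 0 called (median 0.12, against 0.07 over the genes kept). There 1.51% of all genes kept were called in either direction. CD68, a macrophage lysosomal protein, stood at 113.9 FPKM with DAC and 70.9 FPKM untreated (log2 0.68), and PRTN3, a protease of immature granules, at 324 and 487 FPKM (log2 -0.59).

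**Figure D4:**
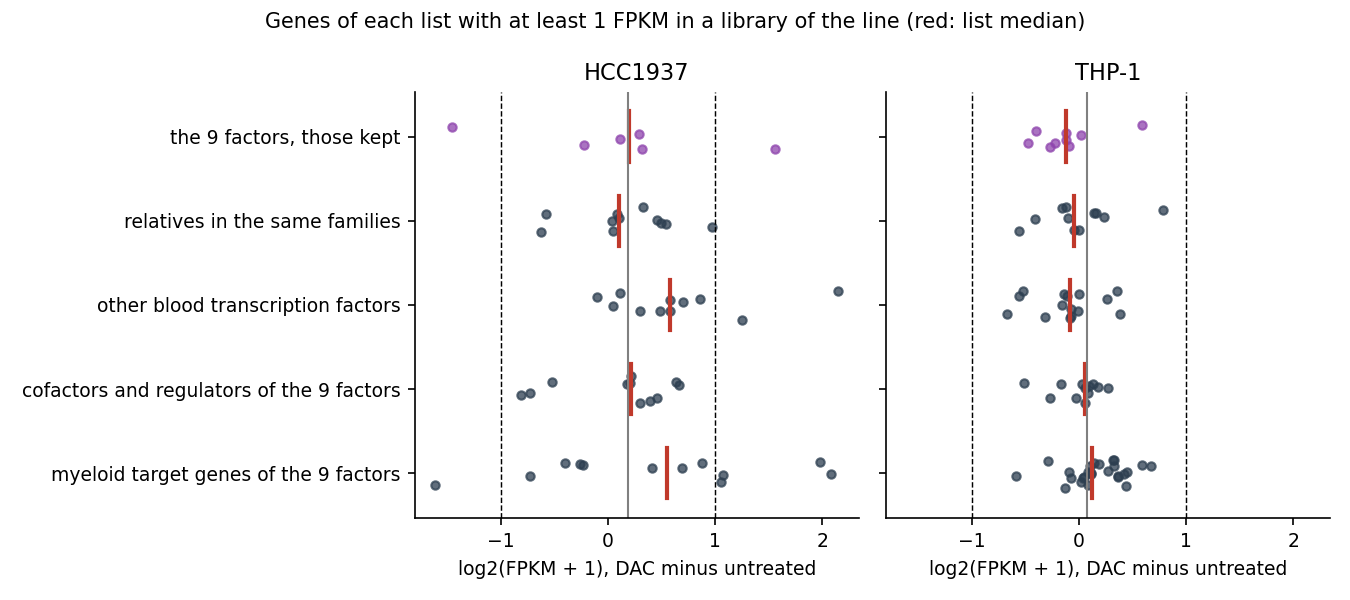
Differences on log2(FPKM + 1), DAC minus untreated, for the kept genes of each list in HCC1937 (left) and THP-1 (right), with 1 point per gene, a red bar at the list median, a grey line at the median of all genes kept and dashed lines at 2-fold. Points beyond 2-fold occur in HCC1937, among the 9 factors, the other blood factors and the target genes, and in none of these lists in THP-1.

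By Euclidean distance over the 4 libraries on log2(FPKM + 1), among 18220 other protein-coding genes, CFD, complement factor D, was nearest to CEBPA (distance 0.95). CFD stood at 14.2 and 1.24 FPKM in the DAC and untreated HCC1937 libraries and at 269 and 296 FPKM in those of THP-1. ITGB2, a leukocyte integrin, and NFYC, a subunit of a general transcription factor, came next (1.16 and 1.22). Nearest to SPI1 were EEF1G, a translation elongation factor subunit (0.30), and the granule proteases PRTN3 (0.67) and ELANE (0.81). The 4 points of this likeness come from 2 lines, so the gap between the lines weighs in it. Exons of another gene on the same strand cover 99.9% of the exon bases of EEF1G. Its HCC1937 values, 0.32 and 0.22 FPKM, may therefore not give its expression, and its likeness to SPI1 is uncertain.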

How the data were processed

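RNA was sequenced in 4 libraries, 1 per group. The tools named, per the submitters' processing notes, are STAR, HTSeq, cutadapt and FastQC, with hg38 as the build; versions, annotation and strand use are not given in the sources used here. The deposited values carry no unit and were taken as FPKM made by the authors: value times exon length of genes of 50 to 250 bases fell on whole multiples of a step, within 0.1, in 90.9% to 94.3% of genes. The deposited THP-1 values, another gene set joined by symbol, are missing in 37039 of 60612 lines. The 1079 lines of 76 repeated symbols were left out.

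Differences were taken on log2(FPKM + 1), without rescaling. Reads were estimated from FPKM, depth and GENCODE 29 exon lengths (RefSeq-matched transcripts for THP-1), so they are approximate. limma 3.58.1 (R 4.3.3, intensity trend, line as a block, 1 residual degree of freedom, Benjamini-Hochberg adjustment, threshold 0.05) was fitted to genes with values in all 4 libraries. Other steps used Python 3.11.15 and scipy 1.17.1. The size rule recovered 182 of 200 simulated 3-fold changes in HCC1937 and 197 of 200 in THP-1, with 19 and 86 unchanged genes called among 13748 genes simulated. The spread between cultures was assumed in the simulation, and only genes expressed in both untreated libraries were changed. These counts are therefore not error rates of the rule in these data, least of all for low genes.

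The 9 factors, the gene and marker lists and the naming rule were chosen with earlier results of these data known. Named from each list were up to 4 called genes per line with the largest difference, otherwise the 2 with the largest, and the 3 genes nearest to CEBPA and SPI1. Alternatives were other scalings, filters, pseudocounts, sizes of change and limma settings. The labels do not say whether libraries came from separate cultures. Some values are not reported here.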

Additional observations from a re-analysis of the deposited data

Results flagged for a closer look

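For 5 of the 9 factors the DAC library lay on opposite sides of the untreated one in the 2 lines, on log2(FPKM + 1). With 1 library per group the difference between the lines was not tested. Of all genes kept, 66.2% had a positive and 33.5% a negative difference in HCC1937, and 65.0% and 34.7% in THP-1. The share of all genes on opposite sides was not counted, so 5 of 9 is not read as a trait of the factors. CEBPA had 1.56 in HCC1937 and -0.27 in THP-1. SPI1 had 0.47 and -0.22, with about 19 and 3 reads behind the HCC1937 value. GFI1 had 0.32 and -0.12, KLF4 had 0.11 and -0.10, and MYB had 0.091 and -0.13. SPI1 and MYB did not reach 1 FPKM in either HCC1937 library. The ratio intervals of MYB in HCC1937 and of KLF4 in THP-1 include equality. The HCC1937 value of KLF4 turned negative under both scalings, so that it was negative in both lines. RUNX1, positive in both lines unscaled, became opposed under these scalings, at 0.12 and 0.04 in HCC1937 and -0.06 and -0.04 in THP-1 with median-of-ratios and upper-quartile scaling.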

How the results depend on the processing

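The HCC1937 count of 2 called factors, CEBPA higher and CEBPD lower, held under both scalings, both other filters, a pseudocount of 0.1 and a size of 1.5-fold. It was 1 with a pseudocount of 10 (CEBPD alone) and 0 with a size of 3-fold on log2(FPKM + 1), although the unadjusted FPKM ratio of CEBPA was 3.74. A larger pseudocount shrinks differences of low genes by construction. The THP-1 count of 0 and the limma count of 0 held under every alternative listed for them. The limma alternative that kept genes at 1 FPKM or more in a library of each line was added after seeing the data. It recovered 200 of 200 simulated 3-fold changes while calling 40 unchanged genes. Those changes were simulated alike in both lines, whereas DAC dose and time differed here, so that recovery does not carry over to the factors. This alternative tested 6 of the 9 factors and gave a lowest adjusted p of 0.642 in limma. Over the limma alternatives that lowest adjusted p ran from 0.642 to 1. With median-of-ratios or upper-quartile scaling, 8 of 9 differences kept their sign in each line. KLF4 in HCC1937 (-0.10 and -0.20) and RUNX1 in THP-1 (-0.06 and -0.04) were the exceptions. These scalings gave a median of all genes kept in HCC1937 of 0.00 and -0.08, against 0.19 unscaled. All-gene calls there were 1158 higher and 365 lower (76.0% higher) and 1063 and 487 (68.6%), against 1452 and 202 (87.8%) unscaled. All-gene calls in HCC1937 were 550 higher and 108 lower at 5 FPKM, 2323 and 383 with a pseudocount of 0.1, 131 and 31 with 10, 3084 and 831 at 1.5-fold and 529 and 30 at 3-fold. In THP-1, where 138 higher and 44 lower were called, these settings gave 42 and 4, 297 and 74, 3 and 0, 398 and 121, and 30 and 9. The labels give no replicate numbers, so the only pairing is that of the DAC and untreated library within each line, which limma uses as its block; without it 0 factors were called as well. Levels near 3 reads (0.029 to 0.103 FPKM for SPI1, MYB and CEBPE in HCC1937) limit what can be said of these genes.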

Other observations

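EEF1G, which every cell uses for translation and which lay nearest to SPI1, was listed at 0.32 and 0.22 FPKM in the DAC and untreated HCC1937 libraries, against 456 and 476 FPKM in those of THP-1. In GENCODE 29, exons of AP002990.1 on the same strand cover 99.9% of its exon bases. Whether this overlap bears on its HCC1937 values was not tested, and they are not read as its expression. The other genes named as near to CEBPA or SPI1 had at most 4.66% covered, and among the 9 factors the cover was 43.4% for CEBPA, 11.8% for CEBPB, 1.88% for MYB and 0% for the rest.

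Transcripts within 5 kb of the factors were few in HCC1937. LINC01436, beside RUNX1, was listed at 0.56 FPKM with DAC, about 11 reads, and at 0 untreated. MYBPC3, beside SPI1, stood at 0.10 FPKM with DAC, about 8 reads, and at 0 untreated. SPIDR, a repair gene beside CEBPD on the opposite strand, stood at 5.14 FPKM with DAC and 7.74 FPKM untreated, a ratio with an interval of 0.603 to 0.730.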
